A study of Homo sapiens with 6 samples.

Results

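Transcripts of the kinase PINK1 and of 8 mitochondrial receptors and regulators of mitophagy were followed in U251 cells, an established human glioma line, with and without exposure to sevoflurane (Sev), an inhaled anesthetic. The genes were PINK1, BNIP3, BNIP3L, FUNDC1, FKBP8, PHB2, BCL2L13, PGAM5 and USP30, and their rows were found by matching the Ensembl identifiers of the deposited tables to these symbols. All 9 were found, among 61496 features in the tables. There were 3 libraries of untreated U251 cells and 3 of U251 cells exposed to Sev gas for 2 h, sequenced with strand-specific adapters from total RNA that had been depleted of ribosomal RNA. All 6 libraries came from this line, and the labels name no engineered allele. The treatment label names concentrations of 1.7, 3.4 and also 5.1% without tying any of them to the 3 Sev libraries. The published legend of the Sev and control comparison names 5.1%, so the concentration of these libraries rests on that legend and not on the labels. Nothing in the labels says that replicates were separate cultures. The paper describes its quantitative data as coming from 3 independent experiments, without naming the sequencing libraries. The p-values therefore measure the spread between these libraries, which may be technical.

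Mitophagy is the removal of mitochondria by autophagy. PINK1 is a kinase that is imported into healthy mitochondria and cleaved there. On damaged mitochondria it stays on the outer membrane, where it phosphorylates ubiquitin and promotes the ubiquitination of outer membrane proteins, and deubiquitinases such as USP30 take the ubiquitin off again. The receptors BNIP3, BNIP3L, FUNDC1, FKBP8 and BCL2L13 sit in the outer membrane and bind ATG8 proteins of the autophagosome directly, without ubiquitin. PHB2 is an inner membrane receptor that is exposed when the outer membrane ruptures, and PGAM5 is a mitochondrial phosphatase that dephosphorylates FUNDC1.

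The libraries held between 38624292 and 46318311 counts, and replicates of a group differed beyond counting noise in 50.1% to 67.6% of 13668 genes for each pair. All 7 glioma and astroglia markers (VIM, NES, CD44, GFAP, S100B, SLC1A3 and SOX9) had at least 10 counts in every library, with a summed FPKM of 1170 to 1378 in control and 1217 to 1332 in Sev libraries, and 2 of the 7 were called, CD44 at a log2 fold change of 0.97 and S100B at −1.10. FPKM is a count scaled by gene length and library size. Markers of other cell types were low, with summed FPKM of 15.9 to 21.1 against 25.9 to 27.3 for 4 neuron genes and 6.44 to 6.89 against 7.54 to 8.66 for 4 epithelium genes. The sums were 0.853 to 1.89 against 1.66 to 1.79 for 4 microglia and leukocyte genes and 0.778 to 1.02 against 0.756 to 0.977 for 3 endothelium genes. The minimum of 10 counts in every library was also met by 4 of 4 neuron and 3 of 3 endothelium genes. It was met by 2 of 4 epithelium and 1 of 4 microglia and leukocyte genes, so it does not separate the cell types. AIF1, which defines microglia, had 0 counts in every library, and EPCAM, which defines epithelium, had at most 5. Of these 15 genes, SYT1, TUBB3, KRT18 and PECAM1 were higher in Sev libraries, and their part in the results was not tested. In bulk RNA a change in the share of cells that express a gene and a change in RNA per cell cannot be told apart.

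Levels are given as CPM, counts scaled to a common library size with TMM normalization, and each gene was tested with the quasi-likelihood test of edgeR on all 27514 features that passed its expression filter. A gene was called when its Benjamini-Hochberg adjusted p over those features was under 0.05. All 9 genes passed the filter, with 137 to 12445 counts in a library. PGAM5 and PHB2 rose, BNIP3 fell, and the other 6 were not called. Changes of this kind were common in these cells, since 22.1% of all features were called higher and 21.5% lower, so 2 of 9 and 1 of 9 lay near the background. With a log2 fold change beyond 1 in either direction and an unadjusted p under 0.05, 23.5% of features passed. None of the 9 genes did (0 of 9 with edgeR and 0 of 9 with the Wald test of DESeq2), although 4 of the 9 had an unadjusted p under 0.05. In TMM-normalized CPM the groups did not overlap for 3 of the 9 genes, against 56.5% of all features. This count depends on the scaling. In the deposited FPKM the groups of PINK1, BNIP3L, FUNDC1 and FKBP8 did not overlap either, whereas those of PHB2 did. The share of all features without overlap was not computed for FPKM. The median log2 fold change of the 9 was −0.069, with 4 positive and 5 negative values, and that of all features was −0.0056.

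**Figure D1:**
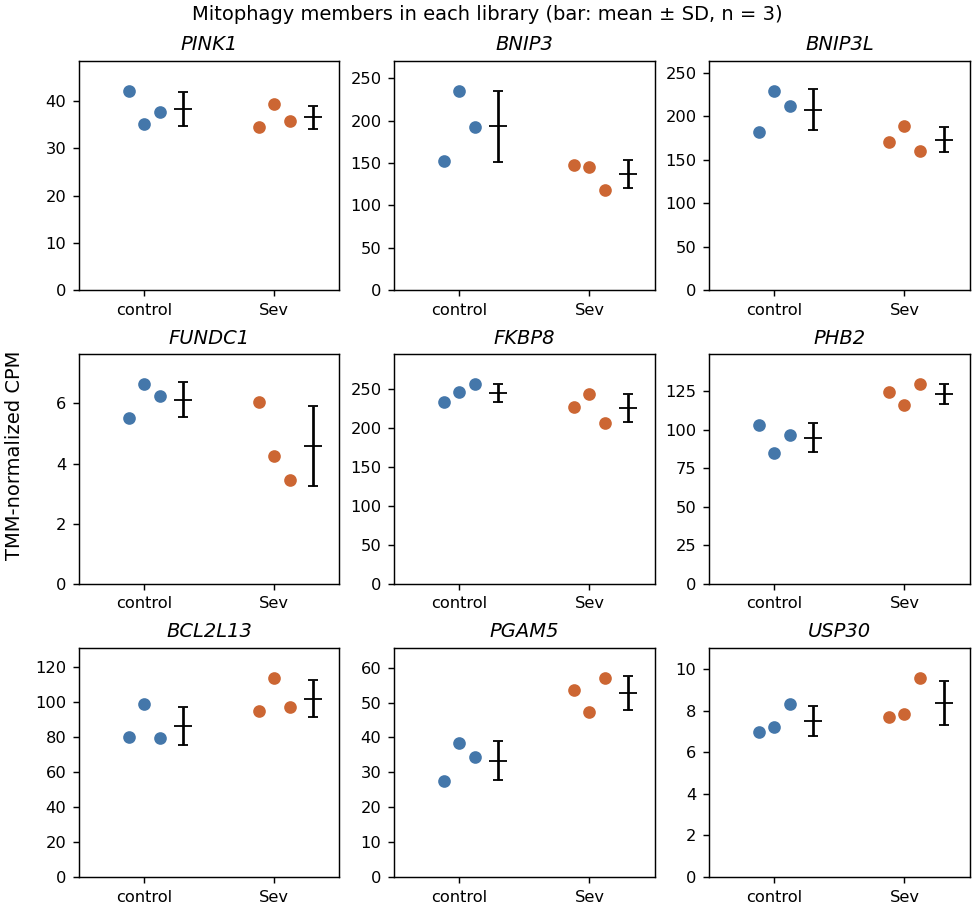
TMM-normalized CPM of the 9 genes in each of the 3 control and 3 Sev libraries, with 1 point per library and the mean ± SD as a bar, each panel on its own axis from 0. PGAM5 and PHB2 lie higher and BNIP3 lower in every Sev library than in any control library, and the groups of the other 6 genes overlap.

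PINK1 (ENSG00000158828, GRCh38 chr1:20633455-20651511, plus strand), the kinase at the head of the pathway, was at 42.1, 35.2 and 37.6 CPM in control and 34.5, 39.3 and 35.7 CPM in Sev libraries. The groups overlapped, and the 3 Sev libraries lay within the control range or just under it. The means were 38.3 ± 3.53 and 36.5 ± 2.49 CPM (SD, n = 3 each), and the log2 fold change was −0.069, with an SE of 0.10 and a 95% interval from −0.31 to 0.17 (edgeR, adjusted p = 0.616). With library size only the log2 fold change was −0.21 (edgeR, adjusted p = 0.145). USP30 (ENSG00000135093, chr12:109023089-109088026, plus strand), the deubiquitinase that opposes the PINK1 pathway at the outer membrane, was at 6.97, 7.22 and 8.34 CPM in control and 7.70, 7.82 and 9.59 CPM in Sev libraries. Its groups overlapped as well, with means of 7.51 ± 0.730 and 8.37 ± 1.06 CPM (SD, n = 3 each) and a log2 fold change of 0.16 (SE 0.15, 95% interval −0.19 to 0.50, edgeR adjusted p = 0.43). Scaled by library size only, USP30 was at 0.018 (edgeR, adjusted p = 0.937). Within each library, the log2 ratio of PINK1 to USP30 counts was 2.59, 2.28 and 2.17 in control and 2.16, 2.33 and 1.90 in Sev libraries. The ratio was 0.22 lower on the log2 scale in Sev libraries, a difference of −0.22 that did not pass a two-sided exact permutation test (p = 0.4, adjusted p = 0.4 over 2 ratios), and leaving out each library in turn gave differences between −0.32 and −0.098. With 3 libraries against 3, that test cannot give a p under 0.1.

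PINK1 shares its locus with PINK1-AS (ENSG00000117242, chr1:20642657-20652193, minus strand), a noncoding RNA from the opposite strand. PINK1-AS was at 30.1, 28.7 and 27.9 CPM in control and 37.0, 39.7 and 36.7 CPM in Sev libraries, so every Sev library lay above every control library. It rose from 28.9 ± 1.12 to 37.8 ± 1.64 CPM (SD, n = 3 each), a log2 fold change of 0.39 with an SE of 0.086 (edgeR, adjusted p = 0.00867), and it was called whichever of the 6 libraries was left out. With library size in place of TMM the log2 fold change was 0.24 and the call was lost (adjusted p = 0.0567). Counts of PINK1 per count of PINK1-AS were 1.40, 1.23 and 1.35 in control and 0.931, 0.990 and 0.974 in Sev libraries. PINK1 counts exceeded PINK1-AS counts in every control library and fell short of them in every Sev library, a description that was not tested.

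**Figure D2:**
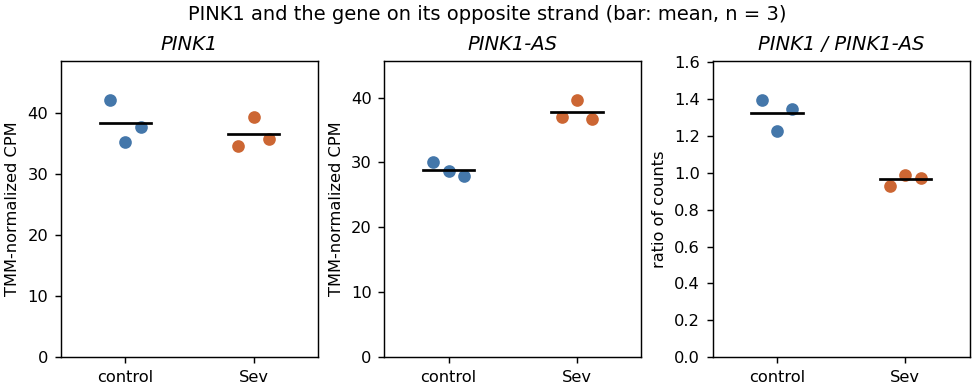
TMM-normalized CPM of PINK1 and of PINK1-AS on the opposite strand, and the ratio of their counts, in each of the 3 control and 3 Sev libraries, with the mean as a bar. The PINK1 points overlap between the groups, the PINK1-AS points do not, and the ratio runs from 1.23 to 1.40 in control and from 0.931 to 0.990 in Sev libraries.

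Of the 4836 exon bases of PINK1, 1907, or 39.4%, lie opposite exons of PINK1-AS. The libraries were strand-specific, but whether the counting used strand is not given in the sources used here. Without strand, reads from the shared bases cannot be told apart, and the values of both genes are uncertain to that extent. When the counts of PINK1 and PINK1-AS were summed, the log2 fold change was 0.15 (edgeR, adjusted p = 0.207), opposite in sign to that of PINK1 alone. PINK1-AS also shares 427 of its 4443 exon bases, or 9.61%, with DDOST on its own strand, a subunit gene of the oligosaccharyltransferase, whose log2 fold change was 0.26 (edgeR, adjusted p = 0.0539).

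BNIP3 (ENSG00000176171, chr10:131966455-131982013, minus strand), a BH3-domain receptor of the outer membrane and a textbook target of the hypoxia factor HIF1, was the gene of the 9 that fell. It was at 152, 235 and 192 CPM in control and 148, 146 and 119 CPM in Sev libraries. The highest Sev library lay just under the lowest control library, and the control libraries spread more widely than the Sev libraries. BNIP3 fell from 193 ± 41.5 to 137 ± 16.2 CPM (SD, n = 3 each), a change of −28.9% and a log2 fold change of −0.49 with an SE of 0.16 (95% interval −0.87 to −0.12, edgeR adjusted p = 0.0397). The call depended on the libraries included. It held only without control replicate 1, the lowest control library, at −0.65 (adjusted p = 0.0128), and was lost when any other library was left out, with log2 fold changes from −0.55 to −0.33 and adjusted p from 0.0648 to 0.119. It was also lost without the expression filter (−0.51, adjusted p = 0.062).

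BNIP3 has pseudogenes, so some of its reads could be assigned to a copy. The tables hold 44 of them, 26 with counts, and these took 5.19% to 6.77% of the summed counts of BNIP3 and its copies in a library. Summing BNIP3 with them left the log2 fold change at −0.49 (edgeR, adjusted p = 0.0376). Of 5421 windows of 100 bases along BNIP3's transcripts, 184, or 3.39%, also occur exactly in another annotated gene, all in BNIP3P1. BNIP3P1 itself was at 2.01 ± 0.967 CPM in control and 2.02 ± 0.362 CPM in Sev libraries (SD, n = 3 each). Inside the BNIP3 gene, on the plus strand and sharing no exon with it, lie 2 antisense transcripts that both fell. ENSG00000273521 (chr10:131980240-131981337), near the BNIP3 start, was at 6.62, 10.8 and 9.39 CPM in control and 3.27, 4.18 and 2.55 CPM in Sev libraries, a log2 fold change of −1.42 with an SE of 0.25 (edgeR, adjusted p = 0.00298). Its groups were well apart, more than those of BNIP3 itself. ENSG00000277959 (chr10:131971202-131971533) fell from 2.71 ± 0.383 to 1.10 ± 0.148 CPM (SD, n = 3 each), at −1.30 (edgeR, adjusted p = 0.00223). Both were called in each of the 6 fits with 1 library removed.

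BNIP3L (ENSG00000104765, chr8:26382898-26505636, plus strand), the paralog of BNIP3 also called NIX, removes mitochondria from maturing red cells and is another HIF1 target. It was at 182, 229 and 211 CPM in control and 171, 189 and 159.9 CPM in Sev libraries. The ranges overlapped only through control replicate 1 and Sev replicate 2. The means were 208 ± 23.8 and 173 ± 14.5 CPM (SD, n = 3 each), and the log2 fold change was −0.26 (SE 0.11, 95% interval −0.51 to −0.015, edgeR adjusted p = 0.0806). BNIP3L was not called with TMM, but it was with library size only (−0.40, adjusted p = 0.0074) and without control replicate 1 (−0.36, adjusted p = 0.0316). Of its exon bases, 330, or 7.66%, lie opposite exons of PNMA2, a gene of the paraneoplastic antigen family on the minus strand. PNMA2 fell from 75.2 ± 2.52 to 41.0 ± 2.14 CPM (SD, n = 3 each), at −0.88 (edgeR, adjusted p = 2.4e-04).

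The paralogs were compared within each library, where no scaling between libraries enters. The log2 ratio of BNIP3 to BNIP3L counts was −0.26, 0.036 and −0.14 in control and −0.21, −0.37 and −0.43 in Sev libraries. The groups overlapped, and the difference of −0.22 did not pass the two-sided exact permutation test (p = 0.2, adjusted p = 0.4 over 2 ratios). Leaving out each library in turn gave differences between −0.29 and −0.14.

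FUNDC1 (ENSG00000069509, chrX:44523639-44543001, minus strand), a receptor that binds ATG8 proteins when it is dephosphorylated, was among the lowest of the 9, with 137 to 303 counts in a library. It was at 5.51, 6.64 and 6.24 CPM in control and 6.05, 4.26 and 3.46 CPM in Sev libraries. Sev replicate 1 lay within the control range, and the other 2 Sev libraries lay under it. The means were 6.13 ± 0.573 and 4.59 ± 1.33 CPM (SD, n = 3 each), with a log2 fold change of −0.42 (SE 0.22, 95% interval −0.93 to 0.091, edgeR adjusted p = 0.16). Without Sev replicate 1 it was −0.67 and called (adjusted p = 0.0399), and without Sev replicate 3 it was −0.25 and not called (edgeR, adjusted p = 0.375). The related FUNDC2, which lies at another locus on the X chromosome and is a family member in the outer membrane, was at 39.0 ± 6.64 CPM in control and 44.2 ± 2.67 CPM in Sev libraries (SD, n = 3 each, edgeR adjusted p = 0.287).

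FKBP8 (ENSG00000105701, chr19:18531751-18544077, minus strand), an outer membrane receptor of the FK506-binding protein family, was at 234, 246 and 256 CPM in control and 228, 244 and 207 CPM in Sev libraries. The groups overlapped. The means were 245 ± 11.4 and 226 ± 18.2 CPM (SD, n = 3 each), with a log2 fold change of −0.12 (SE 0.085, 95% interval −0.32 to 0.079, edgeR adjusted p = 0.293). It was not called with TMM and was called with library size only (−0.26, adjusted p = 0.0176). BCL2L13 (ENSG00000099968, chr22:17628855-17730855, plus strand), the mammalian counterpart of the yeast receptor Atg32, was at 79.8, 98.5 and 79.5 CPM in control and 94.6, 114 and 96.8 CPM in Sev libraries. Control replicate 2 lay among the Sev libraries and the other 2 control libraries lay under them. The log2 fold change was 0.24 (SE 0.12, 95% interval −0.026 to 0.51, edgeR adjusted p = 0.127), and without control replicate 2 it was 0.35 and called (adjusted p = 0.0476). With library size only it was 0.10 and not called (edgeR, adjusted p = 0.447).

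PGAM5 (ENSG00000247077, chr12:132710819-132722734, plus strand) was the gene of the 9 with the smallest adjusted p. It was at 27.4, 38.3 and 34.4 CPM in control and 53.5, 47.4 and 57.1 CPM in Sev libraries. Every Sev library lay above every control library. PGAM5 rose from 33.4 ± 5.54 to 52.7 ± 4.91 CPM (SD, n = 3 each), which was 57.9% higher and a log2 fold change of 0.66 with an SE of 0.14 (95% interval 0.34 to 0.98, edgeR adjusted p = 0.00663). It was called in all 15 alternatives tried, with log2 fold changes from 0.47 to 0.76. PHB2 (ENSG00000215021, chr12:6965327-6970825, minus strand) is a prohibitin, part of a ring-shaped inner membrane complex. It was at 103, 84.8 and 96.7 CPM in control and 124, 116 and 129 CPM in Sev libraries, again with no overlap on this scale, though the FPKM ranges overlapped. PHB2 rose from 94.9 ± 9.33 to 123 ± 6.66 CPM (SD, n = 3 each), 29.9% higher, with a log2 fold change of 0.38 and an SE of 0.095 (95% interval 0.16 to 0.60, edgeR adjusted p = 0.0143). With library size only it was 0.24 and the call was lost (adjusted p = 0.12). Of the 2499 exon bases of PHB2, 239, or 9.56%, are shared on the same strand with SCARNA12, a small RNA gene hosted by it. Of 3603 windows of PHB2, 140, or 3.89%, lie in SCARNA12, whose log2 fold change was 0.46 (edgeR, adjusted p = 0.129).

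Promoter sequences are shown for the 3 genes that were called, as the 250 bases before the start of the transcript in RefSeq, GRCh38.p14, in the direction of the gene. RefSeq entries were matched for 6 of the 9 genes (BCL2L13, BNIP3, FUNDC1, PGAM5, PHB2 and USP30), and PINK1, BNIP3L and FKBP8 had no entry. The BNIP3 promoter is at chr10:131981924-131982173 (minus strand), that of PGAM5 at chr12:132710592-132710841 (plus strand) and that of PHB2 at chr12:6970754-6971003 (minus strand). Capitals mark the E-box CACGTG, which holds the HIF core ACGTG on both strands, in BNIP3, and the ETS motif CCGGAAG, on either strand, in PGAM5 and PHB2.
BNIP3: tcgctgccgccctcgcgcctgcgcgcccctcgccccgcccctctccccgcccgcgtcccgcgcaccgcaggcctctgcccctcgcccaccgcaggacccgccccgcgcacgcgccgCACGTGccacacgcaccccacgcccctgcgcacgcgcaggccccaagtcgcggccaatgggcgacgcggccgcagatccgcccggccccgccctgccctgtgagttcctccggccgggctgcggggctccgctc
PGAM5: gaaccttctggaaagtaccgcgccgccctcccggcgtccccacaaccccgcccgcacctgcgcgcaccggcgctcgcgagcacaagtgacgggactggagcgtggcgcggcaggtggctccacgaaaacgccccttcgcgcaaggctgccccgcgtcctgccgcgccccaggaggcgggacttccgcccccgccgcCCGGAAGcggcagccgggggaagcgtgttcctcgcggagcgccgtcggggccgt
PHB2: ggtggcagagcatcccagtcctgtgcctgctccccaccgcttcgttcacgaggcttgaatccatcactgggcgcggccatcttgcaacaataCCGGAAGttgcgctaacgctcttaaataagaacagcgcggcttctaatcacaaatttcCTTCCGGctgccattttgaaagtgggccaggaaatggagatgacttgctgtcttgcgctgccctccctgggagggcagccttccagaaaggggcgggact

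Both strands were searched for 5 motifs: the HIF core ACGTG, the E-box CACGTG, the FOXO motif GTAAACA, the NRF1 motif TGCGCA and the ETS motif CCGGAAG. Of 35116 RefSeq promoters of this length, 18.5% held the HIF core, 6.34% the E-box, 2.98% the FOXO motif, 6.89% the NRF1 motif and 8.52% the ETS motif. Among the 6 genes, taking for each the entry nearest its annotated start, BNIP3 alone held the HIF core and the E-box, at position −134 from the start. The entry of BCL2L13 lies 9729 bases inside the gene from its annotated start, so its window is not that of the outermost start. The NRF1 motif was in BNIP3 (−108) and FUNDC1 (−154), and the ETS motif in PGAM5 (−54) and PHB2 (−158 and −100). The FOXO motif was in 0 of the 6. A second USP30 entry, from an internal start, held a HIF core at −94 and an ETS motif at −57. These matches describe letters in a window and were not tested against the expression values.

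**Figure D3:**
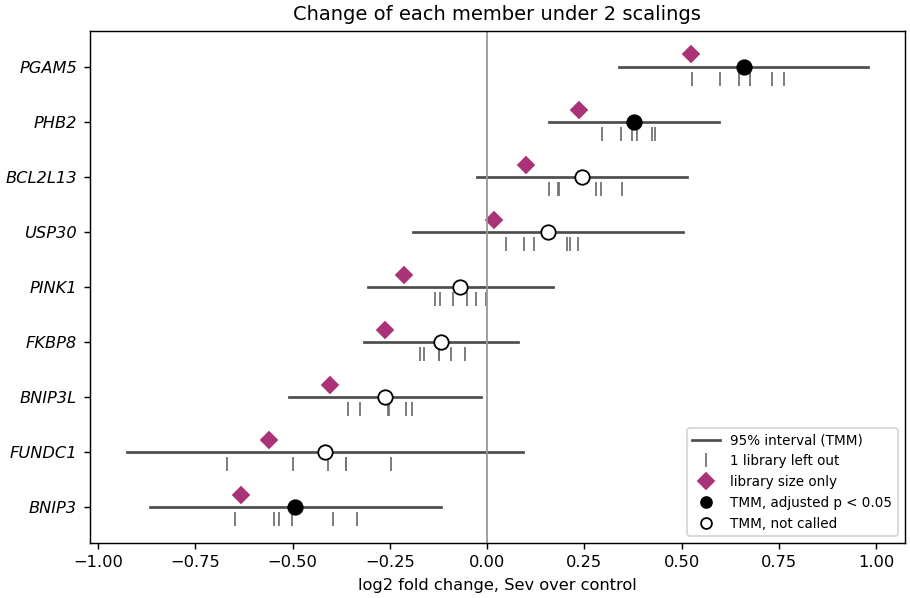
Log2 fold change of each of the 9 genes in Sev over control libraries, under TMM with 95% intervals from edgeR, and under library size only without intervals. Ticks mark the fits with 1 library left out. With TMM the values run from −0.49 for BNIP3 to 0.66 for PGAM5, and with library size only each value lies further to the left.

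The scaling between libraries moved all 9 genes together. TMM factors were 1.03 to 1.08 for control and 0.918 to 0.988 for Sev libraries, and with library size only the median log2 fold change of all features was −0.15, a shift of −0.14. Relative to that median the order of the genes stayed, with PGAM5 above and BNIP3 below the others. With library size only, PGAM5 was called higher, at 0.52 (adjusted p = 0.0175), against 17% of features called higher. BNIP3 (−0.63, adjusted p = 0.00864), BNIP3L and FKBP8 were called lower, against 27.3% of features called lower. Among all tested features, 81.3% had a lower log2 fold change than PGAM5 and 70.5% a lower one than PHB2, whereas 27% lay below BNIP3, 29.8% below FUNDC1 and 36.4% below BNIP3L.

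**Figure D4:**
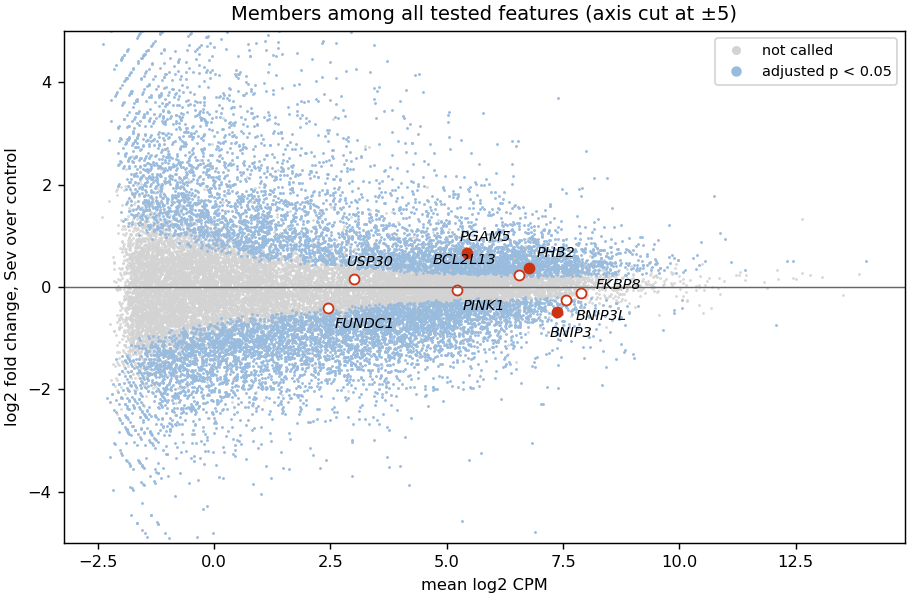
Log2 fold change in Sev over control libraries against mean log2 CPM for the 27514 tested features, with the 9 genes marked and the vertical axis limited to between −5 and 5. The 9 genes lie between −0.49 and 0.66, within the bulk of the features.

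To compare levels between genes the deposited FPKM values were used, which are scaled by length. In control libraries FKBP8 was highest at 74.2 ± 2.66 FPKM, followed by BNIP3L (42.5 ± 4.03), PHB2 (33.4 ± 3.94) and BNIP3 (30.8 ± 6.02), with PHB2 and BNIP3 overlapping. BCL2L13 (9.50 ± 1.05), PGAM5 (7.16 ± 1.05), PINK1 (6.74 ± 0.764), FUNDC1 (4.13 ± 0.297) and USP30 (1.23 ± 0.118) followed, with PGAM5 and PINK1 overlapping (SD, n = 3 each). In Sev libraries FKBP8 was again highest at 61.8 ± 2.92 FPKM. PHB2 (39.3 ± 3.43) stood above BNIP3L (32.0 ± 1.6) and BNIP3 (19.8 ± 1.88) without overlap, and PGAM5 (10.3 ± 1.30) stood beside BCL2L13 (10.2 ± 0.766) with overlap. PINK1 was at 5.81 ± 0.278, FUNDC1 at 2.79 ± 0.80 and USP30 at 1.25 ± 0.198 FPKM (SD, n = 3 each). The receptors FKBP8 and BNIP3L stood well above the kinase PINK1 in every library, and the highest of the 9 was 60.2 times the lowest in control and 49.5 times in Sev libraries.

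The other genes of the pathway were taken from lists by role, 68 genes in all, of which 67 were tested. Of the 67, 30 rose, 7 fell and 30 were not called, beside 22.1% of all features called higher and 21.5% lower. The fold threshold was passed by 6 of the 67, beside 23.5% of all features. In either direction 55.2% were called, beside 43.7% of all features and 45.9% of 15189 protein-coding genes, and the median log2 fold change was 0.23, beside −0.0056 over all features. With library size only the median was 0.086, and 11 genes were called lower.

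Among 13 genes of PINK1 import and cleavage, 8 rose, 1 fell and 4 were not called, with a median of 0.47. That is 69.2% called, beside 43.7% of all features. The translocases TOMM22 and TIMM23, which carry proteins across the outer and the inner membrane, rose from 30.7 ± 3.19 to 55.4 ± 2.56 CPM and from 33.3 ± 2.54 to 56.5 ± 3.17 CPM (SD, n = 3 each). Their log2 fold changes were 0.85 and 0.76 (edgeR, adjusted p = 6.41e-04 and 7.18e-04). The gene that fell was OMA1, the stress-activated inner membrane protease that can cleave PINK1, from 11.0 ± 0.674 to 3.14 ± 0.829 CPM (SD, n = 3 each), at −1.81 (edgeR, adjusted p = 5.01e-04).

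Among 12 genes for outer membrane ligases, ubiquitin and deubiquitinases, 9 rose and 3 were not called. The called share was 75%, beside 43.7% of all features, and the median was 0.41, or 0.27 with library size only. The genes that rose were ligases, ubiquitin precursors and a deubiquitinase. SMURF1, a HECT ligase with a part in mitophagy, rose from 101 ± 0.864 to 219 ± 16.2 CPM (1.12, edgeR adjusted p = 1.08e-04), and MARCHF5, a ligase of the outer membrane, from 49.9 ± 2.70 to 85.7 ± 2.29 CPM (0.78, edgeR adjusted p = 3.45e-04; SD, n = 3 each).

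Among 10 outer membrane proteins that are ubiquitinated in mitophagy, 3 rose, 2 fell and 5 were not called. That is 50% called, beside 43.7% of all features, with a median of 0.084 that was −0.055 with library size only. FAF2, an adaptor of the p97 segregase (0.55, edgeR adjusted p = 0.00183), and the channel VDAC2 (0.51, adjusted p = 0.00415) rose. MFN1, a fusion GTPase, fell from 82.8 ± 0.775 to 50.8 ± 0.612 CPM (SD, n = 3 each), at −0.71 (edgeR, adjusted p = 3.35e-04), and RHOT1, which ties mitochondria to motor proteins, fell by 0.36 on the log2 scale (adjusted p = 0.0128). The related MFN2 rose from 198 ± 17.7 to 272 ± 6.25 CPM (SD, n = 3 each), at 0.46 (edgeR, adjusted p = 0.00418). RHOT2 was not called (0.059, edgeR adjusted p = 0.575).

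Among 20 partners and regulators of the receptors, 7 rose, 2 fell and 11 were not called. The called share was 45%, near the 43.7% of all features, and the median was 0.16, or 0.018 with library size only. FBXL4, part of the ubiquitin ligase that keeps the BNIP3 and BNIP3L proteins low, fell from 34.9 ± 2.82 to 16.5 ± 2.56 CPM (SD, n = 3 each), at −1.08 (SE 0.14, edgeR adjusted p = 7.41e-04). PPTC7, a mitochondrial phosphatase that assists in the turnover of BNIP3 and BNIP3L, rose from 32.5 ± 1.2 to 93.0 ± 11.7 CPM (SD, n = 3 each), at 1.52 (SE 0.11, edgeR adjusted p = 1.05e-04). CSNK2A2, a catalytic subunit of casein kinase 2, which phosphorylates FUNDC1, rose by 0.71 on the log2 scale (edgeR, adjusted p = 6.62e-04). NLRX1, a mitochondrial receptor with an ATG8-binding motif, fell from 15.3 ± 1.72 to 10.6 ± 1.90 CPM (SD, n = 3 each), at −0.54 (edgeR, adjusted p = 0.0296), and kept its call in 2 of 6 fits with 1 library removed.

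Of the 7 ATG8 genes, to whose proteins the receptors bind, 6 were tested and MAP1LC3C was not. Of the 6, 1 fell and 5 were not called, which is 16.7% called beside 43.7% of all features. The median was 0.22, or 0.084 with library size only. GABARAPL2 fell by 0.26 on the log2 scale (edgeR, adjusted p = 0.0407), a call lost in each of 6 fits with 1 library removed, with adjusted p from 0.0705 to 0.113. Among 6 genes for TBK1 and the ubiquitin-binding adaptors, 3 rose, 1 fell and 2 were not called. That is 66.7% called, beside 43.7% of all features, with a median of 0.12 that was −0.020 with library size only. SQSTM1, which encodes p62, rose from 418 ± 47.0 to 653 ± 36.8 CPM (0.65, edgeR adjusted p = 0.00205), and TBK1, the kinase that activates the adaptors, rose by 0.57 on the log2 scale (adjusted p = 0.00198). NBR1, another adaptor, fell from 167 ± 9.32 to 111 ± 15.6 CPM (−0.59, edgeR adjusted p = 0.00434; SD, n = 3 each).

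**Figure D5:**
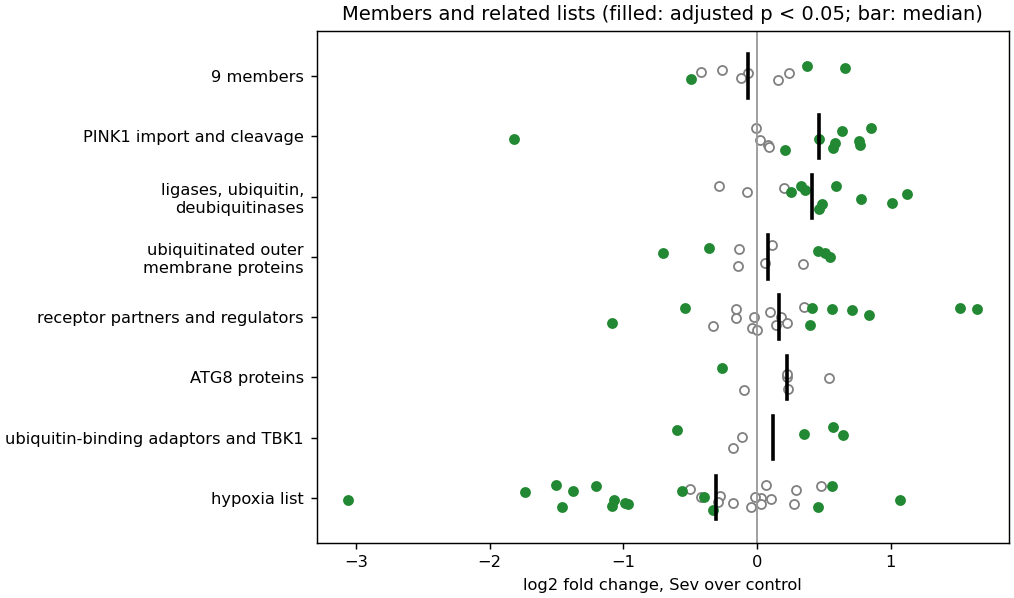
Log2 fold change in Sev over control libraries for the 9 genes and for each related list, with 1 point per tested gene, filled where the adjusted p of edgeR was under 0.05, and the median of each list as a bar. The list medians are 0.47 for PINK1 import and cleavage, 0.41 for ligases, ubiquitin and deubiquitinases, and −0.31 for the hypoxia list.

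BNIP3 and BNIP3L are known HIF1 targets, so a list of 30 hypoxia genes was set beside them. Of the 30, 3 rose, 13 fell and 14 were not called, which is 53.3% called beside 43.7% of all features (22.1% higher and 21.5% lower). The fold threshold was passed by 9 of the 30, beside 23.5% of all features. The median log2 fold change was −0.31, and −0.45 with library size only. DDIT4, an inhibitor of mTORC1 that other stresses also induce, fell from 204 ± 13.4 to 24.5 ± 4.36 CPM (−3.06, edgeR adjusted p = 2.27e-05), and WSB1, a ubiquitin ligase adaptor, fell from 173 ± 16.9 to 62.7 ± 5.11 CPM (−1.46, adjusted p = 9.98e-05; SD, n = 3 each). The genes that rose were SLC2A1, which encodes a glucose transporter (0.46), BHLHE40, a transcriptional repressor (0.57, edgeR adjusted p = 0.00482), and ADM, a vasodilator peptide, from 14.7 ± 0.858 to 30.8 ± 12 CPM (1.07, adjusted p = 0.0112; SD, n = 3 each).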

How the data were processed

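RNA sequencing of 3 control and 3 Sev libraries of U251 cells was analysed. The authors deposited raw counts per feature and a second table with FPKM of the same features. The submitters' processing notes name bcl2fastq 2.19, featureCounts and hg18. The aligner and the annotation are not given in the sources used here. The table's Ensembl identifiers are newer than hg18, so the build is not settled, and the exon overlaps and window shares, computed on GENCODE 29, may differ from the exons counted. Ensembl identifiers gave symbols for 60295 features, and positions came from GENCODE 29 on GRCh38 for 58457. The table also held 932 MSTRG features without a position. Reads shared with copies or with overlapping or antisense genes could be split by the counting.

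Library totals were 38624292 to 46318311 counts. Replicates differed beyond counting noise in 50.1% to 67.6% of the 13668 genes compared. Whether counting or the number of libraries limits precision more was not tested over all features. Counts were tested in R 4.3.3 with edgeR 4.0.16 (filterByExpr, TMM, glmQLFit and glmQLFTest, 2 groups, no covariate) and Benjamini-Hochberg adjustment with a limit of 0.05. An SE is the size of the log2 fold change over the root of its F. CPM values hold no prior count. The fold threshold, a log2 fold change beyond 1 with an unadjusted p under 0.05, follows the methods of the study. Ratios were compared in Python 3.11.15 with scipy 1.17.1 by exact permutation. The edgeR model was tested on simulated data with 200 changed genes. Only those genes were changed, whereas 43.7% of all features were called in these data. The simulation therefore does not test the scaling or the calls in that setting.

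The members and the gene lists were chosen with earlier results of these data known, and no list was tested as a set. The result for 1 gene of the lists is not reported here, and the counts leave it out. Genes named were the 9 members, at most 2 called genes with the smallest p in each direction of each list, copies, FUNDC2, overlapping genes, and the 3 protein-coding genes most correlated with the member of smallest p. SCARNA12, DDOST, SLC2A1, MAP1LC3C, MFN2, RHOT2, AIF1, EPCAM and the called markers were named after their values were seen. Alternatives were DESeq2 1.42.0 (size factors, and its Wald test), library size only, no filter, a minimum of 10 counts per library, a replicate block, limma 3.58.1 on log2(FPKM + 1), with and without a filter of 0.5 FPKM in 3 libraries, and on log2(FPKM + 0.1), and leaving out each library. The sums of BNIP3 with its pseudogenes and of PINK1 with PINK1-AS were added after seeing the data.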

Additional observations from a re-analysis of the deposited data

How the results depend on the processing

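PGAM5 kept its direction and call in all 15 alternatives (log2 fold change 0.47 to 0.76, adjusted p 1.84e-04 to 0.0441), and PINK1 and USP30 were called in none. Summing PINK1 with PINK1-AS turned its log2 fold change to 0.15. BNIP3 lost its call without the filter (−0.51) and with the replicate number as a block (−0.48, adjusted p = 0.0517). PHB2 lost its call with library size only (0.24) and with limma on log2(FPKM + 0.1) (0.24), log2(FPKM + 1) (0.23) and the latter without a filter (0.23). In the same order, FKBP8 became called at −0.26, −0.26, −0.26 and −0.26, and BNIP3L at −0.40, −0.40, −0.39 and −0.39. FUNDC1 became called with log2(FPKM + 0.1) (−0.58) and log2(FPKM + 1) (−0.45). Members called higher numbered 1 in those 4 settings. Members called lower numbered 3 with library size only, 4 with log2(FPKM + 0.1), 4 with log2(FPKM + 1), 3 with the latter without a filter, 0 without the count filter and 0 with the block. More of all features were lower as well: 7502 with library size only and, in the same order as the FPKM settings, 6530, 6709 and 6814, against 5920. Features called higher numbered 3623 and 3676 with log2(FPKM + 0.1) and log2(FPKM + 1), and 12 wider mitophagy genes were lower in both, and 11 with library size only, against 7. In the hypoxia list 1 gene was higher with log2(FPKM + 1) without a filter. The cause of these changes was not tested beyond the scaling shift.

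Leaving out each library in turn gave −0.65 to −0.33 for BNIP3, −0.36 to −0.19 for BNIP3L, −0.67 to −0.25 for FUNDC1, 0.30 to 0.43 for PHB2 and 0.16 to 0.35 for BCL2L13. It gave −0.13 to −0.0040 for PINK1, 0.049 to 0.23 for USP30 and −0.17 to −0.058 for FKBP8, called in none of these fits. It gave 2 to 3 members called higher and 0 to 2 lower, 4780 to 5709 features higher and 4438 to 5521 lower.

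The groups share replicate numbers, but nothing in the labels ties them. Deviations of same-numbered libraries correlated at −0.0072, 0.0035 and 0.027, so the numbers were not treated as pairs. With the block, 5228 features were higher and 5021 lower, GABARAPL2 also lost its call (adjusted p = 0.0958), and no other member's call changed. Precision is limited by 3 libraries per group. FUNDC1 and USP30 rest on the fewest counts.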

Other observations

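Over the 6 libraries, the protein-coding genes whose log2 CPM most resembled that of PGAM5 were RPL17, a large ribosomal subunit gene (Pearson r = 0.999), NUDT21, a subunit of the mRNA cleavage factor (0.999), and ENSG00000261884 (0.998), among 15188 genes compared. RPL17 has near-identical copies, so its counts are uncertain. A total of 1983 genes had an r over 0.9 with PGAM5, and the libraries share the split into control and Sev, so these values are a description.

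Among features named for their likeness to the members, FUNDC2P1, a pseudogene of FUNDC2, had a log2 fold change of 1.94 (edgeR, adjusted p = 0.0067) and BNIP3P42 one of −2.13 (edgeR, adjusted p = 0.00477). Both values rest on few counts, 7 to 71 in a library for FUNDC2P1 and 7 to 65 for BNIP3P42. BNIP3P42 was the 1 called of 11 BNIP3 pseudogenes tested, and the log2 fold changes of the other 10 ran from −1.08 to 0.87. BNIP3 counts ranged over 4699 to 9339 per library, whereas the 26 pseudogenes with counts held 324 to 643 counts per library in sum.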
